A study of Homo sapiens with 11 samples.

Results

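Transcript levels of 10 members of the BCL2 family were examined in Caki-1-SR clone 1 cells exposed to a 4-drug combination. The members were taken by gene symbol from both count tables, in which they are 10 of 26485 genes. They comprise 3 anti-death genes (BCL2, BCL2L1 and MCL1) and 7 pro-death genes, of which BAX and BAK1 encode effectors and BCL2L11, BBC3, PMAIP1, BMF and BID encode BH3-only proteins. All 10 passed the filter on low counts at both times.

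Caki-1-SR is a sunitinib-resistant derivative of Caki-1, a human clear cell renal cell carcinoma line from a skin metastasis. All cells, controls included, were kept in 1 µM sunitinib and came from a single clone. The optimized drug combination (ODC) held 2 µM Rapta-C (an organometallic ruthenium compound), 1 µM erlotinib (an EGFR kinase inhibitor), 1 µM metformin (an antidiabetic biguanide) and 5 µM parthenolide (a sesquiterpene lactone that blocks NF-κB signalling). The 24 h set held 3 CTRL and 3 ODC libraries, and the 2 h set 2 CTRL and 3 ODC libraries, 11 in all. CTRL is called untreated in one place of the study and sham-treated in another. The library names of each set carry their own month, and the labels do not say what that month marks. Set and time cannot be told apart.

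BCL2 family proteins control whether the outer mitochondrial membrane is breached in the intrinsic route of apoptosis. BAX and BAK form the pores, BCL2, BCL-XL and MCL1 hold them in check, and BH3-only proteins respond to stress by engaging either side. BCL-XL and MCL1 are known as the prominent guardians in renal epithelial and renal carcinoma cells. Much of the control is exerted on the proteins, by binding and turnover, which RNA does not show.

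The libraries held between 17785229 and 20882856 counts at 24 h and between 25782895 and 31118349 at 2 h, and a count of 3 corresponded to at most 0.166 CPM. CPM, a count relative to the library total, was scaled by TMM factors (between 0.965 and 1.02). Renal epithelial markers such as PAX8, KRT8, KRT18 and VIM were abundant, whereas CA9 had at most 1 count and PAX2 at most 4 in any library. The 6 endothelial markers summed to at most 1.32 CPM and the 7 immune markers to at most 4.14 CPM. One library stood apart. CTRL replicate 1 at 2 h held 971 counts of COL1A2, 1081 of COL3A1, 65 of LUM and 73 of DCN, fibroblast genes with at most 11, 6, 4 and 3 counts in the other 10 libraries. Not all of the fibroblast list did so. COL1A1 had 6140 counts in this library but between 1249 and 5135 in the others, and PDGFRA at most 20 in any. PDGFRB was not raised, with at most 3.52 CPM in CTRL and up to 5.32 CPM in ODC at 2 h. EPCAM, an epithelial gene, had 100 counts there and at most 27 elsewhere, and the highest endothelial sum was also in this library. The 2 h values of the members and of the other lists are therefore also given without it.

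The promoters of BBC3 and BAX are shown because these were the only 2 members whose ODC libraries all lay above all CTRL libraries at 24 h. The stretches were taken from RefSeq (GRCh38.p14) and end before the first annotated base of the gene. BBC3 is read on the minus strand of chromosome 19 (chr19:47232767-47232917) and BAX on the plus strand (chr19:48954625-48954814). Capitals mark the E-box CACGTG in both, an AP-1 site TGANTCA in BBC3, and in BAX the core of the antioxidant response element, TGACNNNGC, whose first 2 bases are the last 2 of the second E-box.
BBC3: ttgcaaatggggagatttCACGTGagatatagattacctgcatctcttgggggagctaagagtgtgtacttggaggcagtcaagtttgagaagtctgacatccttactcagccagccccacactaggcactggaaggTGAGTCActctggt
BAX: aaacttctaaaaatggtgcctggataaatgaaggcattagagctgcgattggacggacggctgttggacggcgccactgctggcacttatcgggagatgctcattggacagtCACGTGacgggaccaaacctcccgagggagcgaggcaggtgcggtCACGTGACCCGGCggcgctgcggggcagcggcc

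Within the full 250 bases before the RefSeq start, searched on both strands, BAX held 4 E-boxes, beginning 138, 93, 45 and 14 bases before the start. Only 5 of 34788 distinct promoter windows held 4 or more. BBC3 held 1 E-box (232 bases before the start) and the AP-1 site (113 bases before it). An E-box was found in 3 of the 9 members with a promoter entry (BAX, BBC3 and BID), against 6.31% of all windows. The AP-1 site occurred in 6.59% of windows and the antioxidant response element core in 10.9%. The p53 half-site was found in the window of BAK1 alone among the members, against 5.59% of windows. Sequence outside these 250 bases was not searched, so sites elsewhere in or near a gene are not covered. The forkhead site GTAAACA was found in that of BCL2L11, against 2.98%, and the cyclic AMP response element TGACGTCA in no member, against 1.64%.

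Members were compared with each other per kb of exon, as CPM per kb. In CTRL at 24 h BCL2L1 was highest (61.7 ± 3.65 CPM per kb, SD, n = 3), followed by BAX (53.2 ± 1.94, n = 3) and MCL1 (40.0 ± 6.12, n = 3). BAK1 (13.1 CPM per kb), BID (11.5) and PMAIP1 (11.5) formed a middle group whose libraries overlapped. BBC3 (5.61 CPM per kb) and BCL2L11 (5.04) overlapped each other in turn, and below them stood BMF (3.59 CPM per kb) and BCL2 (0.696), although the libraries of BMF spanned the range of all 4 of these genes. BCL2 itself was the scarcest member per kb in CTRL at both times, and BCL2L1, BAX and MCL1 took the first 3 places in all 4 groups.

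**Figure D1:**
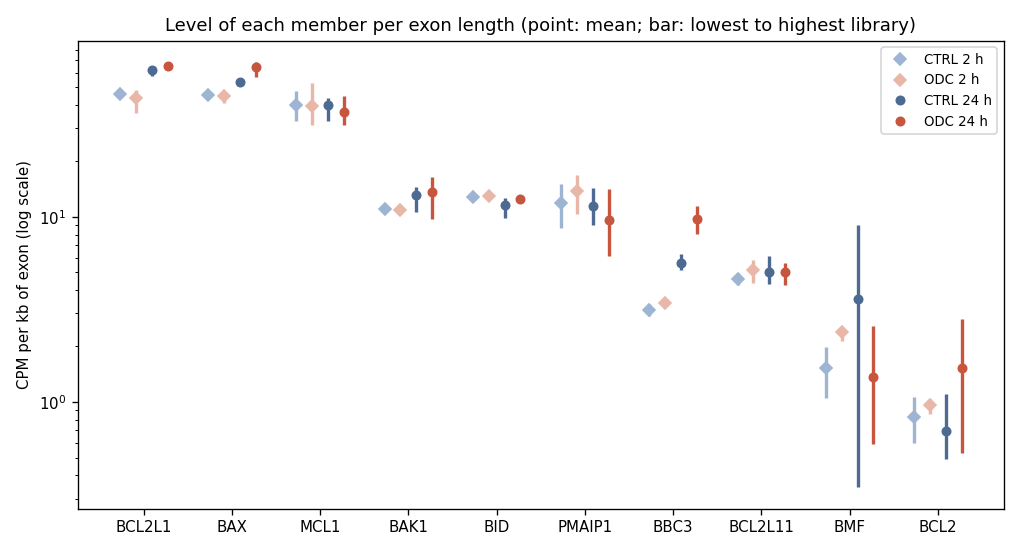
Level of each member in CPM per kb of exon (log axis), by group, with the mean as a point and the lowest to highest library as a bar. BCL2L1, BAX and MCL1 lie above the other members in every group, and the bar of BMF in CTRL at 24 h runs from 0.345 to 9.03 CPM per kb.

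The first comparison asked what 24 h of ODC did to the transcripts of these cells. BBC3, which encodes the BH3-only protein PUMA, had the smallest p of the members and was 1.72-fold higher in ODC, and BAX was 1.21-fold higher. Neither passed over all genes. The anti-death genes BCL2L1 and MCL1 stood at 1.05-fold and 0.924-fold of CTRL, within the spread of their replicates. With the rule of an adjusted p under 0.05, 0 of the 10 members passed, against 0.189% of the 12689 genes tested. With an unadjusted p under 0.05, 2 of 10 were higher and 0 lower, against 12.2% of genes in both directions. The libraries of the groups did not overlap for the same 2 members, against 17.9% of genes. None of the members had both an unadjusted p under 0.05 and a fold of at least 2, which 2.35% of genes had. For a list of 10, a count of 2 lies near these shares, so nothing about the members is read from the counts. The median log2 fold change was 0.076 over the 3 anti-death and 0.057 over the 7 pro-death members, against 0.00089 over all genes tested. The pro-death median lay between -0.0042 (without ODC replicate 1) and 0.16 (without CTRL replicate 2) when a library was left out. In bulk RNA a loss of some cells and less RNA per cell cannot be told apart.

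**Figure D2:**
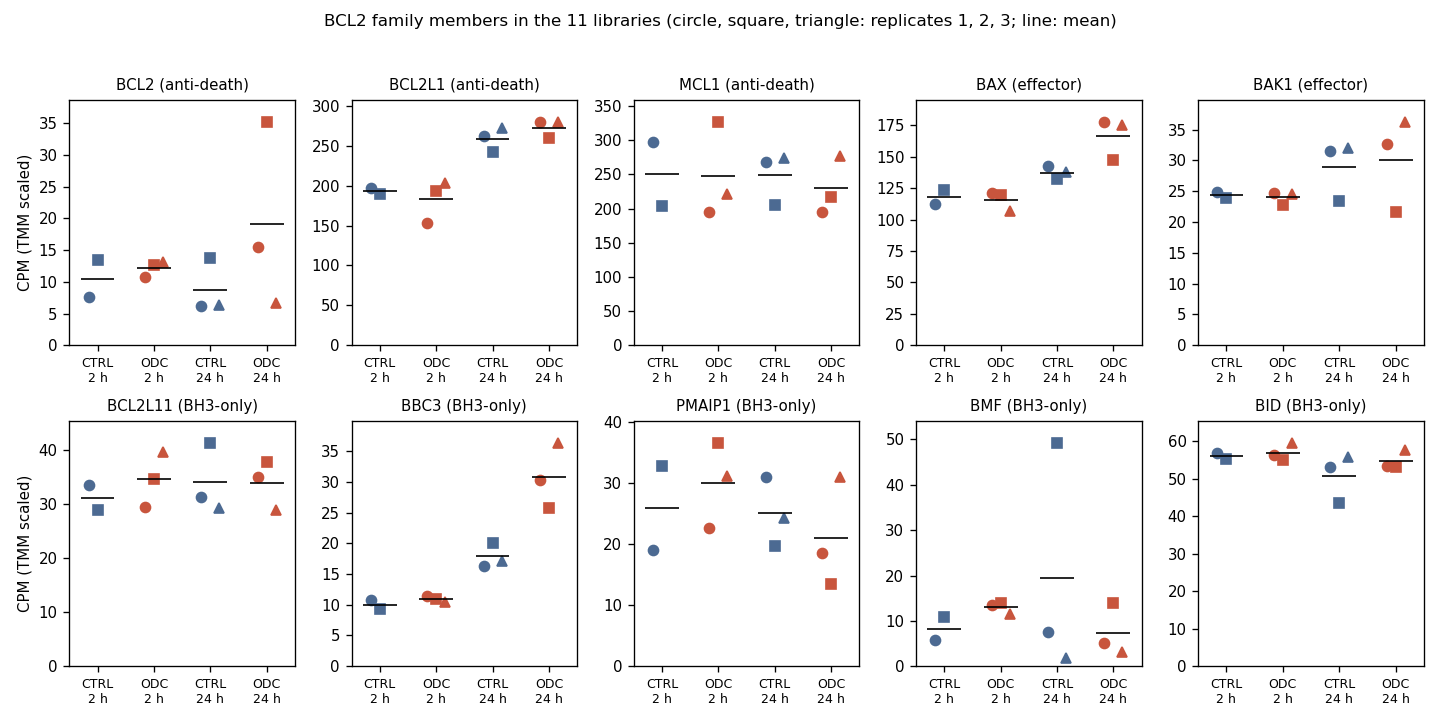
CPM of each member (TMM scaled, axes from 0) in the 11 libraries by group, with replicates 1, 2 and 3 as circle, square and triangle and the mean as a line. The ODC libraries of BBC3 at 24 h lie between 25.8 and 36.3 CPM, above the CTRL libraries at 16.4 to 20.1 CPM, while BCL2 and BMF vary most between replicates.

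Among the anti-death members, BCL2L1 (chr20:31664452-31723989, GENCODE v44 on hg38) encodes BCL-XL. It was read at 262, 242 and 272 CPM in CTRL replicates 1, 2 and 3 and at 279, 260 and 279 CPM in the ODC replicates. The groups overlapped, with a log2 fold change of 0.076 (95% interval -0.13 to 0.28, adjusted p = 0.796 from the quasi-likelihood test of edgeR after Benjamini-Hochberg adjustment, as for all adjusted p below).

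MCL1 (chr1:150560895-150579738) encodes a short-lived guardian. It stood at 268, 205 and 274 CPM in CTRL and at 195, 217 and 278 CPM in ODC. These ranges coincide almost completely, and the log2 fold change was -0.11 (95% interval -0.49 to 0.26, adjusted p = 0.843). Gene counts do not separate the long, protective isoforms of BCL2L1 and MCL1 from their short, death-promoting splice forms.

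BCL2 (chr18:63123346-63320128) had 6.20, 13.8 and 6.31 CPM in CTRL and 15.5, 35.2 and 6.68 CPM in ODC. Its mean was 2.17-fold higher in ODC, yet the third ODC library lay with the low CTRL libraries. The log2 fold change was 1.12 (SE 0.57, 95% interval -0.20 to 2.44, adjusted p = 0.485). It was 0.33 without ODC replicate 2 and 1.61 without CTRL replicate 2. With adjacent library numbers as a replicate block it was 0.98 (adjusted p = 0.0672). The log2 ratios of ODC to CTRL in pairs 1, 2 and 3 were 1.33, 1.35 and 0.083. The spread of BCL2 between replicates, a biological coefficient of variation of 0.472, was above that of 98.9% of genes.

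Of the effectors, BAX (chr19:48954815-48961798) was read at 142, 132 and 138 CPM in CTRL and at 177, 147 and 175 CPM in ODC. Every ODC library lay above every CTRL library, the second only just. The log2 fold change was 0.28 (SE 0.10, 95% interval 0.043 to 0.51, adjusted p = 0.317). It lay between 0.23 and 0.35 when any one library was left out, and was 0.27 with the replicate block (adjusted p = 0.0684). BAK1 (chr6:33572547-33580293), the other pore former, had 31.5, 23.4 and 32.1 CPM in CTRL and 32.7, 21.6 and 36.2 CPM in ODC. Replicate 2 was the lowest in both groups, and the log2 fold change was 0.057 (95% interval -0.43 to 0.54, adjusted p = 0.943). The annotation lists 2 BAK1 pseudogenes, BAK1P1 and BAK1P2, so reads of BAK1 could have been lost as ambiguous.

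BBC3 (chr19:47220822-47232766) had 16.4, 20.1 and 17.1 CPM in CTRL and 30.2, 25.8 and 36.3 CPM in ODC. The groups were separated by more than the CTRL libraries differed among themselves, but by less than the ODC libraries did. The log2 fold change was 0.79 (SE 0.16, 95% interval 0.42 to 1.15, adjusted p = 0.108). It lay between 0.65 and 0.89 when any one library was left out, with adjusted p between 0.102 and 0.452. With adjacent library numbers as a replicate block BBC3 passed (log2 fold change 0.78, adjusted p = 0.0338), as did 5.41% of all genes. It was higher in ODC in all 3 pairs (log2 ratios 0.88, 0.36 and 1.09), but so were BCL2, BCL2L1, BAX and BID. The share of all genes higher in all 3 pairs was not counted. BBC3 was also called in the joint fit of all 11 libraries (adjusted p = 0.0270), by edgeR's likelihood ratio test (adjusted p = 0.00235) and by DESeq2 (adjusted p = 0.00176), which called 1.4%, 3.16% and 2.98% of genes. The adjusted p over all 17 alternatives ran from 0.00176 to 0.452.

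The other BH3-only members showed no separation. BCL2L11 (chr2:111119378-111168444), which encodes BIM, had 31.4, 41.2 and 29.3 CPM in CTRL and 35.1, 37.8 and 28.8 CPM in ODC, with a log2 fold change of -0.0033 (95% interval -0.38 to 0.38, adjusted p = 0.996). BID (chr22:17734138-17774770), which links death receptors to mitochondria once cleaved, had 53.3, 43.6 and 55.7 CPM in CTRL and 53.5, 53.1 and 57.8 CPM in ODC, with a log2 fold change of 0.11 (95% interval -0.16 to 0.37, adjusted p = 0.776). The intervals of BCL2L11 and BID end below the log2 fold change of BBC3, as do those of BCL2L1, MCL1, BAX, BAK1 and PMAIP1. The interval of BBC3 itself begins at 0.42, however, and overlaps those of BAX (up to 0.51), BAK1 (up to 0.54), PMAIP1 (up to 0.44), BCL2 and BMF. BBC3 was not tested against another member.

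PMAIP1 (chr18:59899996-59904305) encodes NOXA, which binds MCL1. It had 31.0, 19.8 and 24.3 CPM in CTRL and 18.6, 13.5 and 31.0 CPM in ODC. Its ODC libraries lay both at the bottom and at the top of the range, and the log2 fold change was -0.25 (95% interval -0.94 to 0.44, adjusted p = 0.800). It was -0.65 without ODC replicate 3 and -0.019 without ODC replicate 2.

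BMF (chr15:40087890-40108892), whose product is tethered to the cytoskeleton in healthy cells, varied more between replicates than 99.98% of genes. Its values were 7.64, 49.2 and 1.88 CPM in CTRL and 5.02, 13.9 and 3.22 CPM in ODC. A single library, CTRL replicate 2, held most of its CTRL signal. The log2 fold change of -1.41 (95% interval -3.75 to 0.93, adjusted p = 0.639) became 0.61 without that library. No direction can be given for BMF at 24 h.

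**Figure D3:**
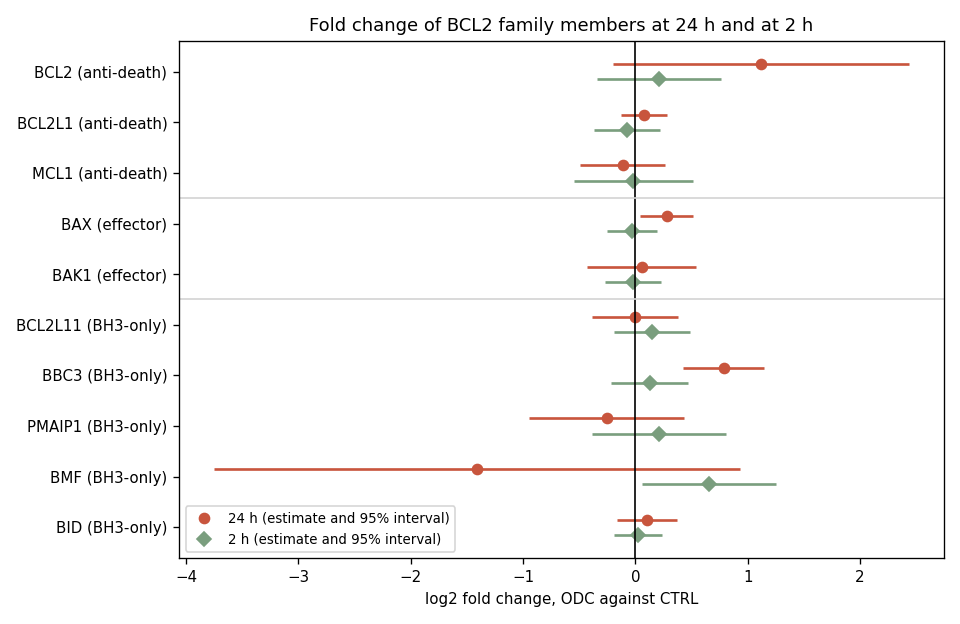
Log2 fold change of ODC against CTRL for each member (x axis) at 24 h (circles) and 2 h (diamonds), with 95% intervals as lines. Of the members at 24 h, BAX and BBC3 alone have intervals above 0, and at 2 h BMF alone (0.062 to 1.25).

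Replicate 2 of both 24 h groups, the libraries numbered 3 and 4, was the highest of its group in BCL2, BCL2L11 and BMF and the lowest in BCL2L1, BAX, BAK1, PMAIP1 and BID. In BBC3 it was the highest CTRL and the lowest ODC library. Against the mean of the 24 h libraries, CTRL replicate 2 was higher by 2.62 on the log2 scale in BMF, and ODC replicate 2 by 0.81. The highest Pearson correlation of any 2 members over the 11 libraries, with the mean of each group removed, was 0.75 (BCL2 and BMF). BCL2 with BAK1 and BMF with BID lay further from 0, both at -0.92. These are descriptions, since libraries of a pair or group share their handling.

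**Figure D4:**
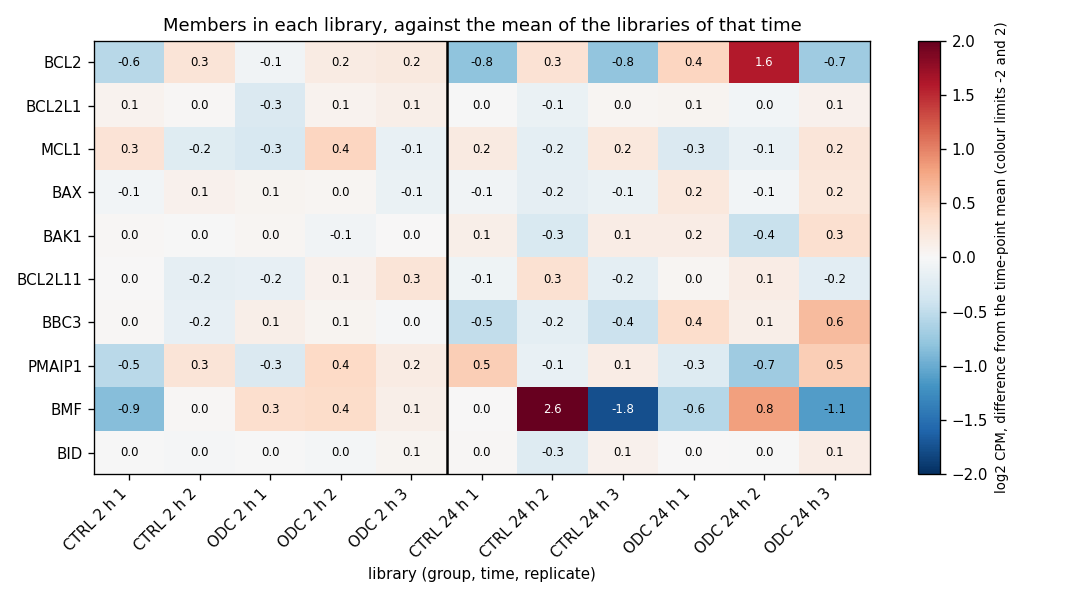
Difference of each member's log2 CPM from the mean of the libraries of its time, by library. CTRL replicate 2 at 24 h stands at 2.62 in BMF and CTRL replicate 3 at -1.76, whereas BCL2L1, BAX, BCL2L11 and BID stay within 0.30 of 0 everywhere.

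The second comparison asked for early changes, after 2 h. No member passed: 0 of 10 had an adjusted p under 0.05 (adjusted p = 1.00 for each), against 0% of the 13332 genes tested, and the likelihood ratio test and DESeq2 called no member either. An unadjusted p under 0.05 was found for 1 of 10, BMF, against 2.34% of genes, and the groups did not overlap for BMF alone, against 15.3% of genes. The median log2 fold change was -0.018 over the anti-death and 0.13 over the pro-death members, against -0.0060 over all genes tested.

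BMF was read at 5.69 and 10.8 CPM in CTRL and at 13.6, 13.9 and 11.6 CPM in ODC. The third ODC library lay just above the second CTRL library, and the log2 fold change was 0.66 (SE 0.26, 95% interval 0.062 to 1.25). Without CTRL replicate 1, the library with the fibroblast genes, it was 0.27, and without CTRL replicate 2 it was 1.21 (adjusted p = 0.0935). CTRL replicate 1 held the lowest BCL2, PMAIP1 and BMF values of the 2 h set. BCL2 stood at 7.55 and 13.4 CPM in CTRL and 10.8, 12.7 and 13.1 CPM in ODC, with a log2 fold change of 0.21 that became -0.14 without it. PMAIP1 had 19.1 and 32.8 CPM in CTRL and 22.6, 36.6 and 31.2 CPM in ODC, with a log2 fold change of 0.21 that became -0.13. MCL1 had 297 and 204 CPM in CTRL and 196, 326 and 221 CPM in ODC, with -0.018 that became 0.28. The others without it were 0.24 for BBC3, 0.26 for BCL2L11, -0.044 for BCL2L1, -0.089 for BAX, 0.0023 for BAK1 and 0.041 for BID, and no member had an unadjusted p under 0.05. The pro-death median was then 0.041. The part of the fibroblast transcripts in these values was not tested.

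The remaining members lay close together at 2 h. BBC3 had 10.8 and 9.28 CPM in CTRL and 11.5, 10.97 and 10.4 CPM in ODC (log2 fold change 0.13, 95% interval -0.22 to 0.47), and BAX had 113 and 123 CPM in CTRL and 121, 120 and 107 CPM in ODC (-0.027, 95% interval -0.25 to 0.20). For these 2 members the 2 h groups overlapped, unlike the 24 h groups. BCL2L1 stood at 197 and 189 CPM in CTRL and 153, 194 and 204 CPM in ODC, and BCL2L11 at 33.5 and 28.9 CPM in CTRL and 29.5, 34.7 and 39.6 CPM in ODC, with log2 fold changes of -0.074 and 0.15. The tightest members were BAK1, between 22.8 and 24.8 CPM in all 5 libraries, and BID, between 55.0 and 59.5 CPM.

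Whether the effect at 24 h differed from that at 2 h was tested in a joint fit of all 11 libraries. No member passed, against 0.015% of the 13333 genes tested, and 1 of 10 had an unadjusted p under 0.05, against 5.93%. That member was BBC3, with a difference of log2 fold changes of 0.64 (SE 0.22, 95% interval 0.16 to 1.12, adjusted p = 0.635). BAX followed with 0.29 (95% interval -0.033 to 0.61, adjusted p = 0.894). BMF gave the widest interval, -2.09 (-4.88 to 0.71), and the others lay between -0.48 (PMAIP1) and 0.89 (BCL2). BBC3 in CTRL was itself 17.9 ± 1.97 CPM (SD, n = 3) at 24 h and 10.0 ± 1.04 CPM (SD, n = 2) at 2 h, a difference in which time and set cannot be told apart.

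The balance of anti-death to pro-death members was followed as a log2 ratio of 2 members within a library, which does not depend on library scaling. Of 12 ratios tested (6 at each time), none had a Benjamini-Hochberg adjusted p below 1. BCL2L1 to BAX did not overlap between the groups at 24 h, with 0.91 ± 0.061 (SD, n = 3) in CTRL and 0.71 ± 0.090 (SD, n = 3) in ODC. Its difference of -0.20 had an exact two-sided permutation p of 0.1, the smallest that 3 against 3 libraries allow. BCL2L1 to BCL2L11 was likewise without overlap at 2 h, at 2.63 ± 0.11 (SD, n = 2) in CTRL and 2.41 ± 0.067 (SD, n = 3) in ODC, with an exact permutation p of 0.2, again the smallest possible. The CTRL libraries stood at 2.56 and 2.71, and the ODC libraries between 2.36 and 2.48, so CTRL replicate 2 alone also lay above them. The ratio BCL2 to BAX was -4.08 ± 0.71 (SD, n = 3) in CTRL and -3.43 ± 1.33 (SD, n = 3) in ODC at 24 h, and overlapped. MCL1 to its partner PMAIP1 (3.33 in CTRL and 3.52 in ODC at 24 h) and MCL1 to BAK1 (3.11 and 2.95) overlapped as well.

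Of 14 other BCL2 family genes, 8 were tested at 24 h, with a median log2 fold change of 0.0086. Of these, 0 had an unadjusted p under 0.05, against 12.2% of all genes. BCL2A1, BCL2L10, BIK, HRK, BCL2L14 and BCL2L15 were too low to be tested. The 3 with the smallest p were BCL2L12 (-0.15), BNIP3 (0.20) and BNIP1 (-0.19). At 2 h BAD, a BH3-only gene, had means of 17.6 ± 0.912 CPM in CTRL (SD, n = 2) and 23.4 ± 3.22 CPM in ODC (SD, n = 3). It was the only one of 9 tested with an unadjusted p under 0.05 (log2 fold change 0.41, adjusted p = 1.00), against 2.34% of all genes. Without CTRL replicate 1 none of the 9 had one.

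Downstream of the mitochondria, the 18 genes of the apoptosome, the caspases and their inhibitors had a median of -0.016 at 24 h. At an unadjusted p under 0.05, 1 gene was higher and 0 lower, against 12.2% of all genes in both directions. That gene was BIRC3, which encodes cIAP2, with means of 32.5 ± 15.7 and 72.5 ± 9.77 CPM in CTRL and ODC (SD, n = 3 each) (log2 fold change 1.16, adjusted p = 0.219, and 0.0282 with the replicate block). BIRC2 (cIAP1, adjusted p = 0.0303 with the block) and BIRC5 (survivin) followed with 0.46 and -0.21. In the death receptor arm, which meets the family at BID, 14 of 16 genes were tested. Their median was 0.31, and the caspase-8 inhibitor CFLAR stood at 0.54. At an unadjusted p under 0.05, 2 were higher (TRAF2 with 0.26 and TRADD with 0.63) and 0 lower, near the 12.2% of all genes. Without the block, no gene of either list was called. With it, 4 genes of the death receptor arm were called, against 5.41% of all genes. These were TRADD (adjusted p = 0.0303) and 3 receptor genes named here for that call, TNFRSF10B (0.0262), FAS (0.0442) and TNFRSF10D (0.0442), all positive. At 2 h both lists held 0 genes with an unadjusted p under 0.05, with medians of -0.028 and -0.040. Without CTRL replicate 1 these medians were 0.0013 and 0.12, and 1 death receptor gene was higher.

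Among 17 genes for channel partners and protein turnover of the family, 16 were tested at 24 h, with a median of 0.069. At an unadjusted p under 0.05, 1 was higher and 0 lower, against 12.2% of all genes in both directions. The higher gene was PIM3, a kinase (log2 fold change 0.41, adjusted p = 0.321), followed by PIM1 (0.34) and USP9X, the deubiquitinase of MCL1 (0.22). Of 16 regulators of transcription of the members, 14 were tested, and ATF4 alone had an unadjusted p under 0.05, against 12.2% of all genes. Its means were 325 ± 43.6 and 200.3 ± 14.7 CPM in CTRL and ODC (SD, n = 3 each) (log2 fold change -0.70, adjusted p = 0.0876, and 0.0248 with the block). CREB1 and NFKB1 both stood at 0.17. At 2 h neither list held a gene with an unadjusted p under 0.05, and the medians were -0.037 and 0.097, or -0.094 and 0.025 without CTRL replicate 1, when 1 partner gene was lower and 1 regulator higher.

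BBC3, BAX and PMAIP1 are known p53 targets, and 16 other p53 targets were set beside them. At 24 h, 15 of the 16 were positive and 1 negative, with a median log2 fold change of 0.61 against 0.00089 over all genes. At an unadjusted p under 0.05, 8 were higher and 0 lower, against 12.2% of all genes in both directions, and none passed over all genes. With the replicate block 11 of the 16 passed, against 5.41% of all genes. Of these, 2 (FAS and TNFRSF10B) are also in the death receptor list. TP53I3, an oxidoreductase gene, had the smallest p, with means of 23.4 ± 2.82 and 43.7 ± 5.13 CPM in CTRL and ODC (SD, n = 3 each) (log2 fold change 0.90, adjusted p = 0.0655). The antiproliferative gene BTG2 (1.23, adjusted p = 0.0982) and FDXR, ferredoxin reductase (0.97, adjusted p = 0.102), came next. The value of BBC3 (0.79) lay within the range of this list, from -0.0042 to 1.23, whereas PMAIP1 (-0.25) lay below it. At 2 h the median of the list was -0.064, and 0.047 without CTRL replicate 1, with 0 genes at an unadjusted p under 0.05 either way.

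PMAIP1 and BBC3 are also known to respond to the integrated stress response, for which 9 target genes were tested. At 24 h and an unadjusted p under 0.05, 1 was higher (ATF3, log2 fold change 1.73) and 3 lower, among them CHAC1 (-1.38) and ASNS (-0.99). The share of all genes was 12.2% in both directions, and the median of the 9 was 0.026. With the replicate block ATF3 and ASNS were called (adjusted p = 0.0296 and 0.00766), as were 5.41% of all genes. At 2 h all 9 were positive, with a median of 0.30 and none at an unadjusted p under 0.05, but without CTRL replicate 1 the median was -0.025, with 4 positive and 5 negative. Signalling through ERK is known to lower BIM and BMF. Of its 12 output genes, 0 were higher and 5 lower at 24 h at an unadjusted p under 0.05, against 12.2% of all genes in both directions. Among the 5 were EGR1 (-2.26, adjusted p = 0.107), PHLDA1 (-0.87) and DUSP6 (-1.07), and the median of the 12 was -0.47. The block called EGR1 (adjusted p = 0.0110) and PHLDA1 (0.0423). At 2 h the median was -0.24, and 0.70 without CTRL replicate 1, with no gene at an unadjusted p under 0.05 either way. BCL2L11 (-0.0033) and BMF (-1.41) did not pass at 24 h, as given above.

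**Figure D5:**
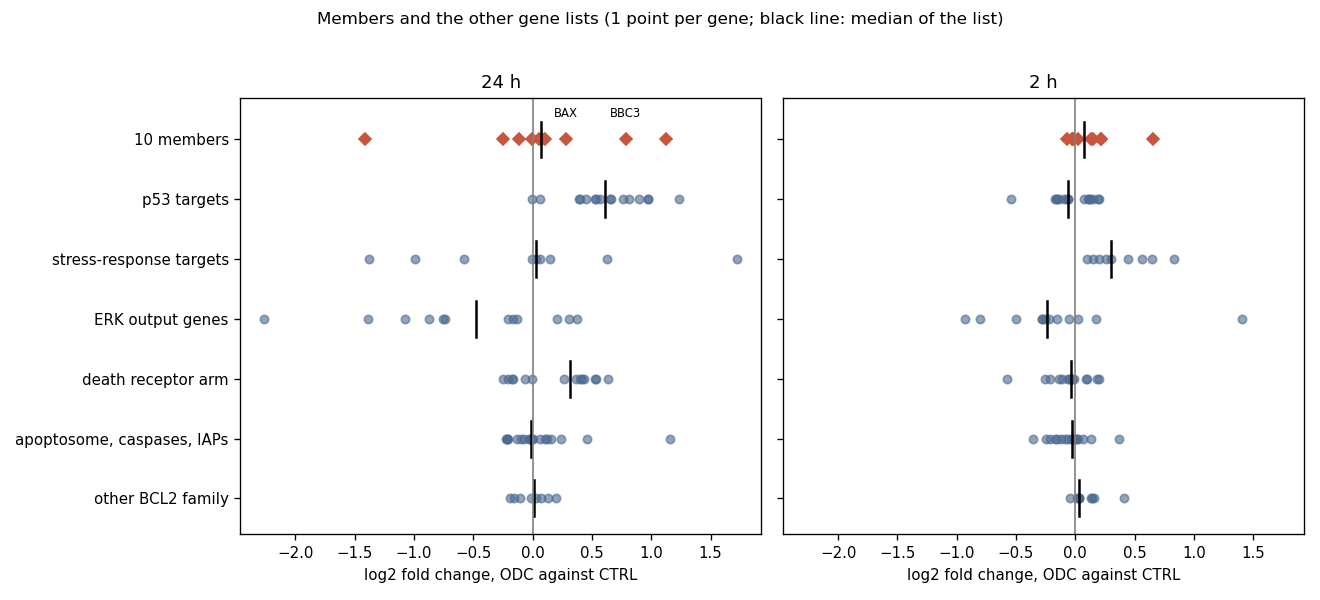
Log2 fold change of ODC against CTRL (x axis) for the 10 members (diamonds) and the tested genes of 6 other lists (circles) at 24 h and at 2 h, with the median of each list as a black line. At 24 h the p53 targets have a median of 0.61 and ERK output genes -0.47, while the members have 0.067.

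The genes most like BBC3 over the 11 libraries, by Pearson correlation of log2 CPM after the mean of each time was removed and out of 13333 genes, were SCPEP1 (0.975), TP53I3 (0.967), SDC1 (0.945), SLC26A11 (0.945) and FDXR (0.943). TP53I3 and FDXR are 2 of the 16 p53 targets above. The genes most like BMF were RNPEP (0.962), ARPIN (0.957), RNF10 (0.942), RIMS3 (0.941) and MCU (0.932). Their log2 fold changes at 24 h lay between -0.20 (RIMS3) and 0.031 (RNF10). BMF was taken for its p at 2 h, but its largest deviations were at 24 h, 2.62 in CTRL replicate 2 and -1.76 in CTRL replicate 3. The largest at 2 h was -0.86, in CTRL replicate 1. Genes that share the 24 h replicate spread of BMF therefore rank high. Only the time mean was removed, so the difference between ODC and CTRL stayed in these values. BBC3 was taken for its p at 24 h, so genes that differ alike between the groups rank high. The log2 fold changes at 24 h of the genes most like BBC3 lay between 0.44 (SDC1) and 0.97 (FDXR). The points share libraries and depth, and the correlations are descriptions.

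Markers of the renal epithelial list moved with the 24 h groups, not all in 1 direction. The summed level of 10 renal epithelial markers was 4781 to 5614 CPM in CTRL and 3723 to 4489 CPM in ODC. At an unadjusted p under 0.05, 4 of the 7 tested were lower and 0 higher, against 12.2% of all genes in both directions. LHX1 (log2 fold change -1.46), KRT18 (-0.71) and KRT8 (-0.62) had the smallest p, and the block called LHX1 (adjusted p = 0.00544) and KRT18 (0.0423). Others of the list were positive, PAX8 with 0.33 and CDH16 with 1.53 (adjusted p = 0.0460 with the block), both named after their values were seen. VIM, which is not specific to epithelium, made up most of the sum, with means of 3342 CPM in CTRL and 2778 CPM in ODC. The summed fibroblast markers at 24 h were 66.5 to 145 CPM in CTRL and 115 to 163 CPM in ODC, nearly all from COL1A1 and PDGFRB. Their part in the values of BBC3 and BAX was not tested.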

How the data were processed

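RNA sequencing of poly(A) RNA was analysed in 11 libraries of Caki-1-SR clone 1 cells, in 4 groups taken from the sample labels. The authors deposited raw counts per gene symbol, in 1 table for each time. Per the submitters' processing notes, STAR 2.7.0f, HTSeq 0.9.1 and edgeR 3.26.8 were used; the study's methods name hg38 as the genome and a stranded kit.

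Counts were tested with edgeR 4.0.16 (quasi-likelihood F test, TMM scaling, filterByExpr set to 10 counts and to 15 in total), separately at 24 h and 2 h, and jointly for the difference. Adjusted p-values are Benjamini-Hochberg over all genes tested, and a call is an adjusted p under 0.05. Ratios were tested by exact permutation. The named genes are all members and, of each other list, any gene called or else the 3 with the smallest p at each time. Members and lists were chosen with earlier results of these data known. The scripts were tested on simulated data. Alternatives used other scalings, filters, tests (DESeq2 1.42.0 among them), a replicate block and leaving out each library. The values of the other lists at 2 h without CTRL replicate 1 were added after seeing the data.

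No replicate number is shared between groups in the labels. At 24 h the library numbers alternate between CTRL and ODC, and the deviations from the group means of adjacent numbers correlated at 0.20, 0.58 and 0.45. What such pairs share is not stated. Outside these pairs, CTRL replicate 1 with ODC replicate 3 gave 0.23, above the 0.20 of CTRL replicate 1 with ODC replicate 1. The other combinations lay between -0.55 and 0.016. Nothing says that replicates are separate cultures, so p-values measure only the spread between these libraries, which may be technical. Replicates differed by more than counting noise (chi-square per gene between 18.7 and 58.0). Positions and exon lengths are from GENCODE v44 on hg38. Counting error alone underlies the floor of 3 counts. One item of the renal epithelial marker list is not reported here.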

Additional observations from a re-analysis of the deposited data

How the results depend on the processing

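At 24 h, 0 of the 10 members were called, against 0.189% of all genes. BBC3 alone was called by the likelihood ratio test, by DESeq2, in the joint fit of all 11 libraries and with the replicate block of adjacent library numbers. These settings called 3.16%, 2.98%, 1.4% and 5.41% of all genes. The number with an unadjusted p under 0.05 went from 2 to 1 (BBC3) with scaling by library totals only and to 3 (with BCL2) under the replicate block, the joint fit, the likelihood ratio test and the filter at 1 count, and lay between 1 and 3 when a library was left out. At 2 h that number went from 1 to 0 in the joint fit and lay between 0 and 3 when a library was left out (3 without CTRL replicate 2, 0 without CTRL replicate 1), and the median of the pro-death members lay between 0.041 and 0.093 instead of 0.13. For the difference between the times it lay between 0 and 3 instead of 1. The replicate block turned the log2 fold change of BCL2L11 from -0.0033 to 0.0037 and changed no member's call but that of BBC3. At 2 h no paired analysis was possible because the labels tie no CTRL library to an ODC library and the group sizes differ.

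Leaving out 1 library changed the sign of uncalled values. At 24 h BAK1 lay between -0.096 and 0.24, BCL2L11 between -0.099 and 0.16 and BMF between -2.25 and 0.61. At 2 h BCL2 lay between -0.14 and 0.71, BCL2L1 between -0.15 and 0.042, MCL1 between -0.27 and 0.28, BAX between -0.089 and 0.053, BAK1 between -0.046 and 0.013, PMAIP1 between -0.13 and 0.67 and BID between -0.0097 and 0.045. For the difference between the times MCL1 lay between -0.40 and 0.14, BAK1 between -0.097 and 0.26 and BID between -0.029 and 0.14. The cause was not tested.

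Over all genes at 24 h, 24 were called, against 92 with no filter beyond 1 count, 401 by the likelihood ratio test, 378 by DESeq2, 186 in the joint fit, 686 with the replicate block and between 2 and 70 without 1 library. The number with an unadjusted p under 0.05 was 1553, and 2999 with the block, or between 897 and 2006 without 1 library. At 2 h 0 were called, against 5 and 1 by the likelihood ratio test and DESeq2 and 42 without CTRL replicate 2; at an unadjusted p there were 312, against 591 without the filter and between 176 and 1201 without 1 library. For the difference, 2 were called, against 7 without the filter, 37 and 36 by those tests and between 0 and 4 without 1 library. No scaling moved the median of all genes by more than 0.1. The lowest count of any member was 34 (BMF in CTRL replicate 3 at 24 h), against a floor of 3, so no member was limited by detection.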
